A study of Mus musculus with 18 samples.

Results

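The comparison described here sets the 12 spleen libraries from mice on a high fat diet that also received streptozotocin (STZ) against the 6 libraries of mice that had neither, so all 18 libraries of the series take part. Group membership came from the treatment labels and no measured value was used to choose it. STZ is a toxin taken up by insulin-producing cells, and with a high fat diet it is a common way to make a diabetic mouse. All animals were ICR mice aged 10 weeks, and each of the 6 groups holds 3 libraries. The unexposed side is made of untreated controls (control) and of mice given AOS, an agent whose abbreviation the labels do not spell out, at 10 mg/kg (AOS). On the exposed side, every group had diet and STZ: alone (HS), with AOS at 10 mg/kg (HS_AOS), with a faecal microbiota transplant (FMT) labelled for AOS at 10 mg/kg (HS_AOSFMT), or with an FMT labelled control (HS_conFMT). Diet and STZ were never given apart, so what each of them did cannot be told apart. Transplants were given only on the exposed side, in HS_AOSFMT and HS_conFMT. The pooled difference therefore also holds any effect of a transplant. The labels do not say that the libraries of a group are separate animals, so p-values measure only how far these libraries spread, which may be technical.

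Insulin restrains the use of fat as fuel. When it is scarce or when fat is plentiful, fatty acids activate the nuclear receptors called PPARs, which turn on genes that bring fatty acids into mitochondria, store them in droplets, make ketone bodies and hold back glucose oxidation. Insulin and glucose in turn favour the genes of fatty acid and cholesterol synthesis. The spleen filters blood and houses lymphocytes and macrophages, and its transcripts also reflect the makeup of its cells. In bulk tissue, fewer cells of a type and less RNA per cell cannot be told apart.

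The spleens of the 4 diet and STZ groups shared a small set of raised genes, led by genes of fatty acid use. Acot1, an enzyme that frees fatty acids from coenzyme A, was 4.15-fold higher than in the unexposed spleens, and Pdk4, a kinase that blocks the entry of pyruvate into the citric acid cycle, was 3.00-fold higher. Cpt1a, the gate for fatty acids into mitochondria, rose 1.51-fold, and Plin2, the coat protein of lipid droplets, rose 1.54-fold. Oxct1, which lets tissues burn ketone bodies, fell in HS, HS_AOS and HS_conFMT and stayed within the unexposed range in HS_AOSFMT. Of 12969 genes (of 19326 entries) with at least 1 FPKM, the fragment count scaled to transcript length and library depth, in at least 3 libraries, limma called 51 higher and 18 lower at an adjusted p below 0.05, together 0.532% of the genes tested, 0.393% higher and 0.139% lower. An unadjusted p below 0.05 was seen for 1809 genes. Without HS_AOSFMT, 8 genes were called higher and 3 lower. Log2 changes are limma estimates on log2(FPKM + 1), each group weighing the same, and most were small: 49 of the 51 rises were less than 2-fold on this scale. The fold values are ratios of mean FPKM without the added 1, which shrinks the log2 changes of low genes. Slc6a12, for example, was 2.84-fold higher by means, with a log2 change of 0.65.

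In 4 libraries the transcripts of other tissues or of neutrophils stood apart most: acinar genes in HS 1 and HS_AOS 1, neutrophil genes in control 1 and sperm genes in control 2. Their shares, and smaller ones in other libraries, are given with the markers of other tissues. Without these 4, an alternative chosen after seeing the data, 18 genes were called, 12 of them among the 69. Among these were Plin2, Acot1 and Cpt1a, whereas Pdk4 (adjusted p = 0.071) and Oxct1 (adjusted p = 0.0616) were no longer called. These counts also depend on how the 6 groups are treated. When group was taken as a random block, so that differences between groups counted as error, 1 gene was called (Acot1, adjusted p = 0.0259; 646 genes at an unadjusted p below 0.05). Without HS_AOSFMT 11 genes were called, all 11 among the 69. Quantile normalization gave 143 calls, 90 higher and 53 lower. Of the 68 called genes that are not predicted genes, 57 were not called without HS_AOSFMT. The others were Plin2, Acot1, Pdk4, Cpt1a, Klf10, Rassf4, Cyp4b1, Nr1d1, Oxct1, Kap and Dars. Of the same 68, 18 were called in each of the 18 fits that left out a single library, and 10 of these also in each of the 4 fits that left out a whole diet and STZ group. The 10 were Plin2, Acot1, Pdk4, Cpt1a, Klf10, Rassf4, Cyp4b1, Nr1d1, Oxct1 and Kap. None of these fits left out control or AOS as a whole group. Against AOS alone Nr1d1 was not called and the change of Kap was positive, and against control alone Cyp4b1 was not called.

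The promoters of the genes that carry the shared rise in fat and glucose handling are printed here as 250 bases before the RefSeq transcription start on GRCm38.p6, 5′ to 3′ in the direction of the gene. The window of Acot1 is chr12:84009252-84009501 (plus strand), that of Pdk4 chr6:5496279-5496528 (minus), that of Plin2 chr4:86670060-86670309 (minus) and that of Cpt1a chr19:3323051-3323300 (plus). Capitals mark CCAAT on either strand.

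Acot1: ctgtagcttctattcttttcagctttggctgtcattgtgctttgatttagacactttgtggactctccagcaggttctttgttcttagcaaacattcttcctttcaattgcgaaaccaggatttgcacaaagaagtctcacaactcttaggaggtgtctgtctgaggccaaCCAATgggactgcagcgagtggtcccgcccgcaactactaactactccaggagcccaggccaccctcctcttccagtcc
Pdk4: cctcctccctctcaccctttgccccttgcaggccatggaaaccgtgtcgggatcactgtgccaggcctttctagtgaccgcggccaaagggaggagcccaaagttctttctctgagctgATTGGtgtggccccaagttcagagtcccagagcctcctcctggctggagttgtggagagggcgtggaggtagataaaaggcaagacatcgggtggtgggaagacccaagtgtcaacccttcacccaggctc
Plin2: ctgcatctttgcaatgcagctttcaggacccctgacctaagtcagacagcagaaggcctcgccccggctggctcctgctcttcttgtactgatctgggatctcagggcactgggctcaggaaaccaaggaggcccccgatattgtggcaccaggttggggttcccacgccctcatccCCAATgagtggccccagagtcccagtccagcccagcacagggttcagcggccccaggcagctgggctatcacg
Cpt1a: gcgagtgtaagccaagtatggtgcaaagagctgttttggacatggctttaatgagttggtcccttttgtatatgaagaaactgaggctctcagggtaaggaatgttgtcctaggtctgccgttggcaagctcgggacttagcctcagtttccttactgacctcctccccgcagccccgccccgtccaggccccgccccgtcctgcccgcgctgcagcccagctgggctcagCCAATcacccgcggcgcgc

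Each of these 4 windows held 1 CCAAT. That motif is common: it was found on either strand in 43.0% of 10171 tested genes with a promoter in the table (windows of 250 bases before to 50 after the start), in 17 of the 39 called higher genes that had one and in 9 of the 17 called lower genes. The direct repeat bound by PPARs, searched on both strands as AGGTCA repeated in the same direction with 1 base of any kind between, was in 5 of the 10171 and in 0 of the called genes. No match says only that these letters are not in this window.

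Acot1 (chromosome 12, 84009490 to 84018371, mm10) was at 1.39, 1.77 and 1.81 FPKM in control and at 1.38, 1.82 and 1.75 in AOS. It was at 13.2, 6.27 and 3.60 in HS, at 9.74, 9.15 and 7.29 in HS_AOS, at 7.38, 4.56 and 5.16 in HS_AOSFMT, and at 5.39, 5.82 and 4.73 in HS_conFMT. All 12 exposed libraries lay above all 6 unexposed ones, and HS was the most spread group (log2 change 1.5, SE 0.17, adjusted p = 0.000781). Acot1 has close relatives in the same gene cluster, and how reads shared among them were counted is not given in the sources used here, so its level is uncertain.

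Pdk4 (chromosome 6, 5483351 to 5496309) was at 1.71, 2.88 and 2.65 FPKM in control and at 2.67, 2.97 and 2.86 in AOS. In HS it was at 4.84, 7.74 and 3.31, in HS_AOS at 5.76, 5.72 and 4.43, in HS_AOSFMT at 15.3, 11.2 and 14.0, and in HS_conFMT at 5.50, 9.36 and 7.28. The groups did not overlap, and the HS_AOSFMT libraries were the highest of the 18 (log2 change 1.19, SE 0.14, adjusted p = 0.000781). The 4 exposed groups differed from each other in Pdk4 (moderated F test of limma, adjusted p = 0.0113). Its call also held without HS_AOSFMT (adjusted p = 0.0375).

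Cpt1a (chromosome 19, 3322334 to 3385733) stood at 22.8, 23.7 and 25.2 FPKM in control and 26.1, 25.8 and 25.7 in AOS. The exposed libraries ran from 30.9 through a median of 35.8 to 47.8, again all above the unexposed (log2 change 0.56, SE 0.078, adjusted p = 0.00286). A difference among the 4 exposed groups was not called (adjusted p = 0.272). Plin2 (chromosome 4, 86648386 to 86670060) stood between 22.2 and 27 FPKM in the unexposed libraries. It was at 41.9, 39.1 and 39.3 in HS, at 38.3, 32.6 and 30.4 in HS_AOS, at 44.3, 48.1 and 44.0 in HS_AOSFMT, and at 30.9, 31.2 and 30.4 in HS_conFMT. This was the gene with the smallest p of the whole table (log2 change 0.59, SE 0.053, adjusted p = 0.00012). Its level differed among the exposed groups (adjusted p = 0.00718), with HS_conFMT and HS_AOS lower than HS_AOSFMT, yet the lowest exposed library was still above the highest unexposed.

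**Figure D1:**
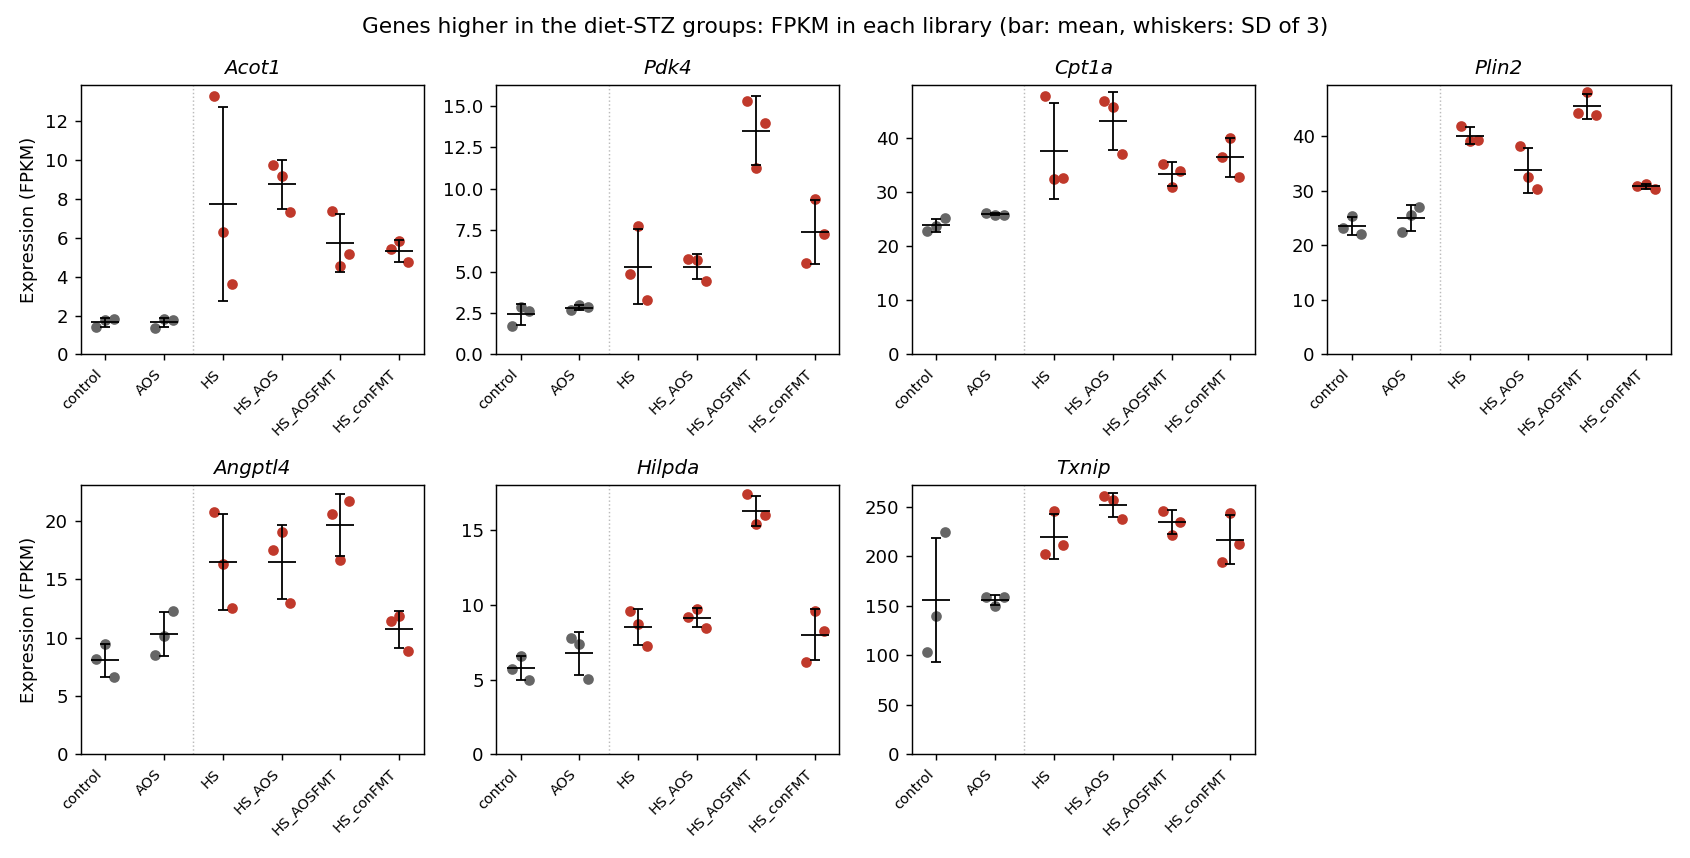
FPKM (y axis, from 0) of 7 genes of fat and glucose handling in each of the 18 libraries by group, with unexposed groups in grey left of the dotted line and diet and STZ groups in red; horizontal bars are means of 3 libraries and whiskers SD. Acot1, Pdk4, Cpt1a and Plin2 do not overlap between the sides, whereas Angptl4, Hilpda and Txnip do.

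The list of fatty acid oxidation genes and PPAR targets held 25 genes, of which 24 were tested. In it 6 rose, 0 fell and 18 were not called, beside 0.393% called higher and 0.139% called lower over all genes tested. This list, like the others, was chosen with earlier results of these data known, so its counts are not independent support. The median log2 change was 0.11 and 19 of 24 were positive, beside a median of 0.0062 and 52.5% positive over all genes tested. Among the risen members were Plin2, Pdk4, Acot1, Cpt1a and Angptl4. The untested member, Ucp3, never exceeded 0.80 FPKM. The median was close in HS (0.099), HS_AOSFMT (0.088) and HS_conFMT (0.12) and was 0.23 in HS_AOS.

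Angptl4 (chromosome 17, 33773750 to 33781830), which inhibits the lipase that frees fatty acids from blood lipoproteins, ranged from 6.63 to 12.3 FPKM in unexposed libraries. In HS it was at 20.7, 16.3 and 12.5, in HS_AOS at 17.6, 19 and 13, in HS_AOSFMT at 20.6, 16.6 and 21.7, and in HS_conFMT at 11.4, 11.9 and 8.88. So 9 of 12 exposed libraries were above the unexposed maximum, and the 3 that were not were those of HS_conFMT (log2 change 0.70, SE 0.12, adjusted p = 0.0136). Angptl4 was called in 16 of the 18 fits without a single library, and was not called without HS_AOSFMT.

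Among 19 proteins and lipases of lipid droplets, 15 were tested, 2 rose and 0 fell (median log2 change -0.05, 4 of 15 positive). The second riser beside Plin2 was Hilpda, a droplet protein that inhibits triglyceride breakdown. It lay between 4.97 and 7.77 FPKM unexposed, between 6.17 and 9.72 in the 9 exposed libraries outside HS_AOSFMT, and at 17.4, 15.4 and 16 in HS_AOSFMT (log2 change 0.62, SE 0.095, adjusted p = 0.00641). Without HS_AOSFMT it was not called (adjusted p = 0.287). The droplet protein gene Cidec, which is typical of adipocytes, averaged 2.40 FPKM exposed and 4.96 unexposed and was not called (adjusted p = 0.35), and Dgat2, an enzyme of triglyceride synthesis, averaged 3.82 and 6.19 (adjusted p = 0.12).

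Oxct1 (chromosome 15, 4026383 to 4155344), which activates acetoacetate for burning, was at 34.2, 35.4 and 32.2 FPKM in control and 36.9, 39.5 and 35.0 in AOS. It was at 23.6, 27.1 and 23.6 in HS, at 23.6, 23.8 and 24.1 in HS_AOS, at 25.2, 28.4 and 27.4 in HS_conFMT, and at 33.9, 33.3 and 32.2 in HS_AOSFMT. So 9 of 12 exposed libraries were below every unexposed library, and the 3 HS_AOSFMT libraries fell within the unexposed range (log2 change -0.38, SE 0.043, adjusted p = 0.00073; difference among exposed groups, adjusted p = 0.00575). Without HS_AOSFMT the log2 change was -0.48 (adjusted p = 0.00109). Of 7 ketone body genes tested from a list of 8, 1 fell (Oxct1) and 5 were not called. Bdh1, which interconverts the main ketone bodies, averaged 3.47 FPKM exposed and 4.56 unexposed (adjusted p = 0.0909).

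Acaca and Fasn of fatty acid synthesis fell, as did Nsdhl of cholesterol synthesis. Acaca, Fasn and Nsdhl were not called without HS_AOSFMT. In the fatty acid and triglyceride synthesis list, 17 of 18 genes were tested, 0 rose and 2 fell (median -0.12, 3 of 17 positive). Acaca, acetyl-CoA carboxylase, which makes the building block of fatty acids, lay between 5.18 and 7.21 FPKM unexposed and between 3.74 and 5.25 exposed. In 11 of 12 exposed libraries it was below the unexposed minimum, and the 3 HS_AOSFMT libraries, at 3.74, 3.80 and 3.78, were the lowest (log2 change -0.38, SE 0.062, adjusted p = 0.0108). Fasn, fatty acid synthase, was at 8.38, 11.7 and 11.6 FPKM in control, at 15, 20.5 and 12.9 in AOS and between 6.66 and 11.7 exposed (log2 change -0.55, SE 0.12, adjusted p = 0.0461). Fasn was called in 5 of the 18 fits without a single library. Against AOS alone it was called (adjusted p = 0.0391) and against control alone it was not (adjusted p = 0.422). Thrsp, a regulator of lipid synthesis rich in fat tissue, averaged 2.32 FPKM exposed and 6.06 unexposed (adjusted p = 0.09).

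All 22 cholesterol synthesis genes were tested, 0 rose and 2 fell, and 20 of 22 estimates were negative (median -0.16). The medians were -0.21 in HS, -0.15 in HS_AOS, -0.23 in HS_AOSFMT and -0.15 in HS_conFMT. Nsdhl, a sterol dehydrogenase of the same pathway, ranged from 11.7 to 15.9 FPKM unexposed and from 9.64 to 12.9 exposed, with 9 of 12 exposed libraries below the unexposed minimum (log2 change -0.29, SE 0.059, adjusted p = 0.041). Its call held in 6 of the 18 fits without a single library. Sqle, an early oxygen-using enzyme of the pathway, averaged 8.15 FPKM exposed and 9.93 unexposed (adjusted p = 0.067). In the list of cholesterol efflux genes 0 of 10 were called (median 0.06), and Abca1, an exporter of cholesterol, averaged 11.6 and 8.52 FPKM (adjusted p = 0.081).

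**Figure D2:**
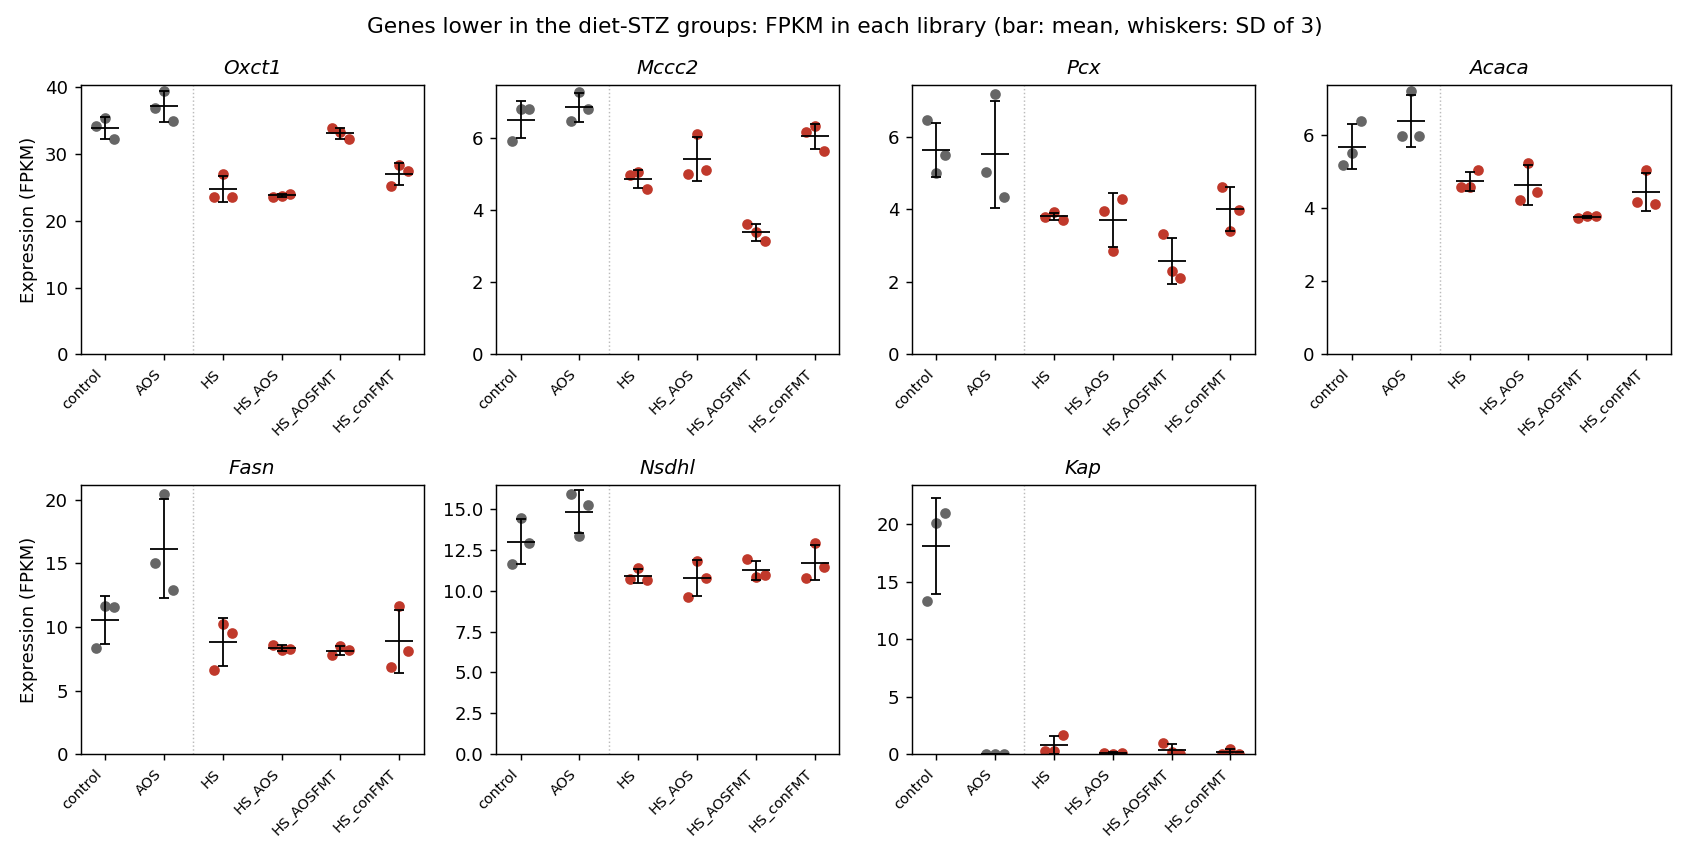
FPKM (y axis, from 0) of 7 lower genes in each of the 18 libraries by group, with unexposed groups in grey and diet and STZ groups in red; horizontal bars are means of 3 libraries and whiskers SD. Oxct1 stays at its unexposed level in HS_AOSFMT, and Kap is at 0 in all 3 AOS libraries.

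Acaca is a biotin-dependent carboxylase, and 2 further genes of that enzyme family were among the 18 lower calls. They were set side by side after these values had been seen. Pcx, pyruvate carboxylase, which refills the citric acid cycle from pyruvate, was at 6.46, 4.99 and 5.49 FPKM in control and 5.03, 7.17 and 4.35 in AOS. It was between 2.12 and 4.62 in the exposed libraries, 11 of 12 of them below the unexposed minimum (log2 change -0.55, SE 0.10, adjusted p = 0.0307). Mccc2, a subunit of the leucine-degrading methylcrotonyl-CoA carboxylase, lay between 5.92 and 7.26 FPKM unexposed. It was at 4.97, 5.06 and 4.59 in HS, at 5, 6.12 and 5.11 in HS_AOS, at 3.61, 3.39 and 3.14 in HS_AOSFMT, and at 6.15, 6.32 and 5.65 in HS_conFMT (log2 change -0.39, SE 0.054, adjusted p = 0.00243). HS_AOSFMT was the lowest group and HS_conFMT overlapped the unexposed range (difference among exposed groups, adjusted p = 0.0026). Without HS_AOSFMT, Acaca, Pcx and Mccc2 were not called.

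The other members of the family were not called. Mccc1, the partner subunit of Mccc2, averaged 4.83 FPKM exposed and 5.10 unexposed (adjusted p = 0.775). The propionyl-CoA carboxylase subunits Pcca (6.87 and 7.53, adjusted p = 0.375) and Pccb (16.4 and 17.4, adjusted p = 0.55), and Acacb (1.24 and 1.18, adjusted p = 0.842), were likewise not called. Ivd, which acts a step before methylcrotonyl-CoA carboxylase in leucine breakdown, averaged 12 and 15 FPKM (adjusted p = 0.131).

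Genes regulated by glucose were also among the risers. Txnip, an arrestin-like protein that restrains glucose uptake and is strongly induced by glucose, was at 103, 140 and 225 FPKM in control, at 158, 150 and 159 in AOS and between 194 and 260 in the exposed libraries. Control 3, at 225, overlapped the exposed range, and 7 of 12 exposed libraries were above it (log2 change 0.59, SE 0.12, adjusted p = 0.0372). Its relative Arrdc4, also a brake on glucose uptake, ran from 4.26 to 9.28 FPKM unexposed and from 8.91 to 15.2 exposed (log2 change 0.60, SE 0.13, adjusted p = 0.0471). In both genes control 1 was the lowest and control 3 the highest unexposed library. Calls for Txnip and Arrdc4 held in 5 and 3 of the 18 fits, and neither held without HS_AOSFMT.

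The windows of 250 bases before the starts of these related genes are printed because both are textbook targets of the glucose-sensing factors that bind a paired E-box, the carbohydrate response element. That motif was searched, after the genes had been seen, on both strands as CACGNG followed by 5 bases of any kind and CACGNG again. The Txnip window is chr3:96557707-96557956 (plus strand), and that of Arrdc4 is chr7:68749239-68749488 (minus). Capitals mark the paired motif, CACGTG and CCAAT on either strand in both.

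Txnip: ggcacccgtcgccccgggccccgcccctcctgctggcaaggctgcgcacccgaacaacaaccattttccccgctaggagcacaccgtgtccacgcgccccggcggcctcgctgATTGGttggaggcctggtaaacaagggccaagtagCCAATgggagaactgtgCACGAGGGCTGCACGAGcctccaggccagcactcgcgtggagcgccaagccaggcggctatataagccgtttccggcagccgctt
Arrdc4: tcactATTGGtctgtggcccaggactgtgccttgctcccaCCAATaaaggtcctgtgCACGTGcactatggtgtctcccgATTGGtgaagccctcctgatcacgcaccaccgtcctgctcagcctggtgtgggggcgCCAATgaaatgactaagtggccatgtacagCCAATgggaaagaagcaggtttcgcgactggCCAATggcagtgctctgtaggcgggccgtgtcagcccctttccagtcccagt

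The paired motif starts 85 bases before the Txnip start. It was present in 15 of 27025 genes with a promoter in the table (0.0555%), in 9 of the 10171 tested ones, and in no called gene other than Txnip. The Txnip window also held 2 CCAAT and 0 CACGTG, and that of Arrdc4 held 6 CCAAT and 1 CACGTG. A single CACGTG was in 11 of the 39 called higher genes with a promoter (28.2%), in 2 of the 17 called lower ones and in 11.4% of the 10171 tested genes.

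Klf10, a zinc finger repressor known to respond to glucose and to TGF-beta, was at 9.17 to 10.4 FPKM in the unexposed libraries and at 11 to 15.7 in the exposed (1.34-fold, log2 change 0.38, SE 0.048, adjusted p = 0.00151). The sides did not overlap. Its relative Klf11 rose from 4.80 ± 0.847 (SD, n = 6) to 7.07 ± 1.14 FPKM (SD, n = 12), with 9 of 12 exposed libraries above the unexposed maximum (adjusted p = 0.041). Without HS_AOSFMT, Klf10 kept its call and Klf11 did not. In the list of glycolysis and glucose uptake genes 1 of 20 rose (Txnip), 0 fell and 16 estimates were negative (median -0.11). Hk2, an insulin-responsive hexokinase, averaged 1.77 FPKM exposed and 2.60 unexposed (adjusted p = 0.081). In the insulin and IGF signalling list 0 of 21 were called (median 0.09).

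Of the 69 called genes 11 had sides that did not overlap (16 of all 12969 genes, 0.123%; 0.0231% with the exposed below). Beside Acot1, Pdk4, Cpt1a, Plin2 and Klf10, the higher ones included Slc6a12, Adamtsl4 and Rassf4. Slc6a12, a betaine and GABA transporter, was at 0.30 to 0.70 FPKM unexposed and 0.80 to 2.49 exposed (log2 change 0.65, adjusted p = 0.0166). Adamtsl4, a matrix protein, was at 1.26 to 1.72 and 1.81 to 4.06 (log2 change 0.51, adjusted p = 0.00177), with HS_AOSFMT highest at 4.06, 4.05 and 3.83. Rassf4, a member of the RASSF family of adaptors, was at 9.87 to 13.2 and 13.7 to 18.2 (log2 change 0.45, adjusted p = 0.00521). Without HS_AOSFMT, Rassf4 kept its call, whereas Slc6a12, Adamtsl4 and the lower genes named next did not. The lower genes with no overlap were Mipep, a mitochondrial peptidase that trims imported proteins (8.45 to 9.92 unexposed, 6.50 to 8.20 exposed; log2 change -0.24, adjusted p = 0.0467), and Kpnb1, the importin beta that carries proteins into the nucleus (69.8 to 75.9 and 59.8 to 68.0; log2 change -0.16, adjusted p = 0.041).

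Cytochrome P450 genes appeared among the risers too. Cyp4b1 rose from 5.68 ± 1.69 (SD, n = 6) to 10.9 ± 1.90 FPKM (SD, n = 12), with 11 of 12 exposed libraries above the unexposed maximum (log2 change 0.85, SE 0.11, adjusted p = 0.00228). The AOS libraries were the lowest, at 4.18, 4.47 and 4.40, and Cyp4b1 was called against AOS alone (adjusted p = 0.00492) and not against control alone (adjusted p = 0.133). Cyp1b1, a target of the aryl hydrocarbon receptor, was at 6.47, 9.44 and 10.8 FPKM in control, at 12.7, 13.4 and 15.7 in AOS and at 12.2 to 31.3 exposed (log2 change 0.78, SE 0.12, adjusted p = 0.00951). It was called against control alone (adjusted p = 0.00915) and not against AOS alone (adjusted p = 0.245). Without HS_AOSFMT, Cyp1b1 was not called. No other gene of the aryl hydrocarbon receptor list was called among 6 tested. The receptor gene Ahr averaged 4.04 FPKM exposed and 3.34 unexposed (adjusted p = 0.207).

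The 4 exposed groups did not move alike. The moderated F test called a difference among them in 712 of 12969 genes (5.49%), and in 25 of the 69 called genes, 23 of them higher and 2 lower. In 58 of the 69, all 4 exposed group means lay on the same side of both unexposed means, as they did in 13.7% of all genes. The 69 were picked by a contrast of these same means, so a larger share among them is built in. Set singly against the mean of the unexposed groups, HS gave 2 calls (0.0154%), HS_AOS 9 (0.0694%), HS_conFMT 12 (0.0925%) and HS_AOSFMT 1718 (13.2%). The largest change was in HS_AOSFMT for 47 of the 69 (68.1%), against 46.1% of all genes tested, in HS_AOS for 12, in HS_conFMT for 6 and in HS for 4. For the 51 higher genes the median log2 change against the unexposed mean was 0.81 in HS_AOSFMT, 0.32 in HS, 0.33 in HS_AOS and 0.32 in HS_conFMT. For the 18 lower genes these medians were -0.40, -0.34, -0.33 and -0.35. These 4 sets of changes share the same 6 unexposed libraries.

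**Figure D3:**
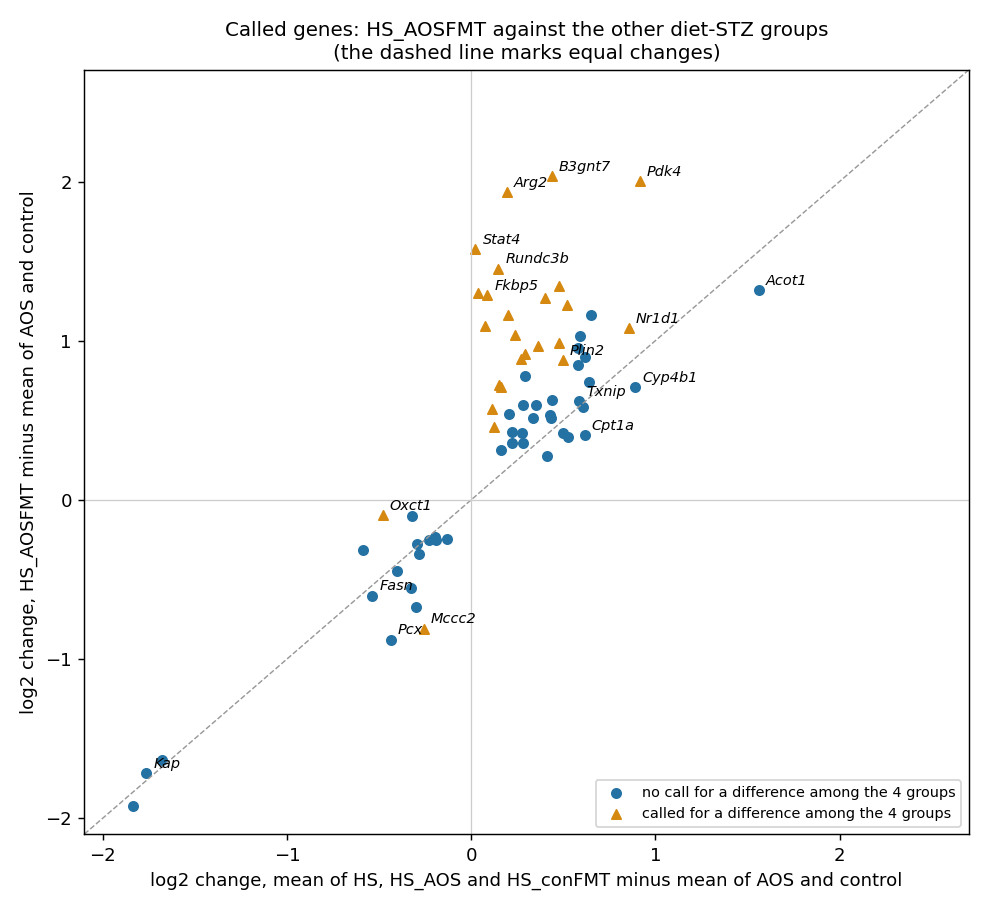
Each point is 1 of the 68 called genes that are not predicted genes; the x axis is its log2 change averaged over HS, HS_AOS and HS_conFMT, the y axis its log2 change in HS_AOSFMT, both against the mean of AOS and control. Orange triangles, genes called for a difference among the 4 exposed groups, lie mostly above the dashed line of equal change, with Stat4 at 0.022 on the x axis, while Acot1, Cpt1a and Cyp4b1 lie under it.

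Many calls of the pooled comparison therefore depend on HS_AOSFMT: of the 68 named above, 57 were not made without it, in a fit with fewer libraries. Stat4, a transcription factor of cytokine signalling in lymphocytes, was between 15.1 and 19.4 FPKM unexposed, between 15.5 and 21.0 in the other 9 exposed libraries, and at 48.8, 54.0 and 64.8 in HS_AOSFMT. Its pooled log2 change of 0.41 (adjusted p = 0.0296) was 0.022 without HS_AOSFMT (adjusted p = 0.961). Rundc3b was at 0.75 to 1.30 FPKM unexposed and at 4.37, 4.41 and 4.47 in HS_AOSFMT, and the pooled log2 change of 0.47 became 0.15 (adjusted p = 0.573). Pde3b, a phosphodiesterase through which insulin lowers cyclic AMP, was at 18, 18.1 and 18.6 FPKM in HS_AOSFMT and at 6.21 to 7.73 in the other exposed libraries, with a log2 change of 0.039 without that group (adjusted p = 0.919). B3gnt7 (0.84 to 0.44, adjusted p = 0.306) and Arg2, an arginase (0.63 to 0.19, adjusted p = 0.688), also lost their calls.

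The clock list held 16 tested genes, of which 2 rose and 0 fell (median 0.18, 14 of 16 positive), and 10 of the 16 differed among the exposed groups. Nr1d1, a repressor in the clock, was at 1.61, 1.99 and 2.13 FPKM in control and at 5.68, 6.09 and 3.15 in AOS. It was at 3.94, 3.44 and 3.46 in HS, at 8.56, 8.04 and 6.12 in HS_AOS, at 6.51, 7.09 and 9.70 in HS_AOSFMT, and at 9.38, 10.6 and 8.51 in HS_conFMT. HS lay within the AOS range, so the call (log2 change 0.91, adjusted p = 0.00138) does not separate exposed from unexposed spleens; against AOS alone it was not made (adjusted p = 0.262). Per1, a clock gene that glucocorticoids also induce, was at 5.42 to 9.14 unexposed and 8.46 to 16.9 exposed (log2 change 0.60, adjusted p = 0.00641). The hour of collection is not in the labels, and a difference in hour cannot be told apart from one of treatment for clock genes.

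In the glucocorticoid responsive list 3 of 15 rose (Per1, Ddit4 and Fkbp5), 0 fell and all 15 estimates were positive (median 0.31). The median was 0.93 in HS_AOSFMT, 0.40 in HS_conFMT, 0.11 in HS and 0.081 in HS_AOS, and 9 of the 15 were called for a difference among these groups. Ddit4, an inhibitor of mTOR signalling induced by stress hormones, was at 16.5 to 35.3 FPKM unexposed and 30.7 to 68.0 exposed (log2 change 0.69, adjusted p = 0.0248). Fkbp5, a co-chaperone of the glucocorticoid receptor, was at 8.82 to 11.8 unexposed, at 9.71 to 14.2 in the other exposed groups and at 32.0, 22.3 and 26.6 in HS_AOSFMT. Its call ended without HS_AOSFMT (adjusted p = 0.732), as did those of Per1 and Ddit4. Without HS_AOSFMT the list median was 0.12. Zfp36l2, an mRNA decay factor, was at 47.6 to 88.1 unexposed and 60.9 to 146 exposed, with HS_AOSFMT (141, 146 and 137) and HS_conFMT (100, 116 and 121) highest (log2 change 0.70, adjusted p = 0.00335).

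Stress and growth programs gave no calls in the pooled comparison. Of all genes tested 0.532% were called, so 0 calls in a short list say little about that list. Among heat shock chaperones 0 of 14 were called (median 0.28), with list medians of 0.44 in HS, -0.34 in HS_AOS, 0.75 in HS_AOSFMT and 0.38 in HS_conFMT. Among unfolded protein response genes 0 of 23 were called (median -0.05, but 0.18 against control alone and -0.18 against AOS alone), and 12 of the 23 differed among the exposed groups. All 26 cell division genes had negative estimates and 0 were called (median -0.25); the medians were -0.48 in HS_AOSFMT and -0.39 in HS_conFMT, and -0.079 and -0.089 in HS and HS_AOS. Erythroid markers (0 of 23 called, median -0.14) had medians of -0.58 in HS_AOSFMT, -0.30 in HS_conFMT, 0.19 in HS and 0.093 in HS_AOS. With the haemoglobin share as a covariate the cell division median was -0.18. Oxidative phosphorylation genes (0 of 24 called, median -0.07), p53 targets (0 of 17, median 0.12), antioxidant genes (0 of 23, median -0.08) and the integrated stress response (0 of 18, median -0.07, but 0.032 against control alone and 0.022 against AOS alone) were also without a call.

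Immune lists were without a call as well, which for short lists is near the 0.532% called over all genes tested. The interferon list had 0 of 22 called (median -0.24), the list of NF-kB and inflammatory genes 0 of 16 (median 0.15), Toll-like receptors 0 of 20 (median 0.05) and MHC class II genes 0 of 11 (median 0.07). For the interferon list the median of AOS minus control was 0.67. Its member Irf7 was at 276 FPKM in AOS 3 and at 30.7 to 93.0 in the other unexposed libraries. It was also high in HS 3 (112) and HS_AOS 3 (124). All 19 T cell markers had positive estimates and 0 were called (median 0.18). The medians were 0.53 in HS_AOSFMT, 0.15 in HS_conFMT and 0.025 in both HS and HS_AOS. Without the 4 libraries that stood apart most, the pooled T cell median was 0.011. In HS_AOSFMT the haemoglobin genes held a share of 12.9% to 17.6% of all FPKM, against 17.2% to 34.3% unexposed, and with that share as a covariate the T cell median was 0.13. The interleukin 7 receptor gene Il7r averaged 24.9 FPKM exposed and 16.5 unexposed (adjusted p = 0.052). For B cell markers 0 of 14 were called (median 0.06), for NK and cytotoxic genes 0 of 14 (median -0.04), for dendritic cell markers 0 of 13 (median 0.19) and for red pulp and marginal zone macrophage markers 0 of 17 (median 0.01). Plasma cell markers (0 of 14, median -0.11) had a median of 0.25 against control alone and of -0.54 against AOS alone.

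**Figure D4:**
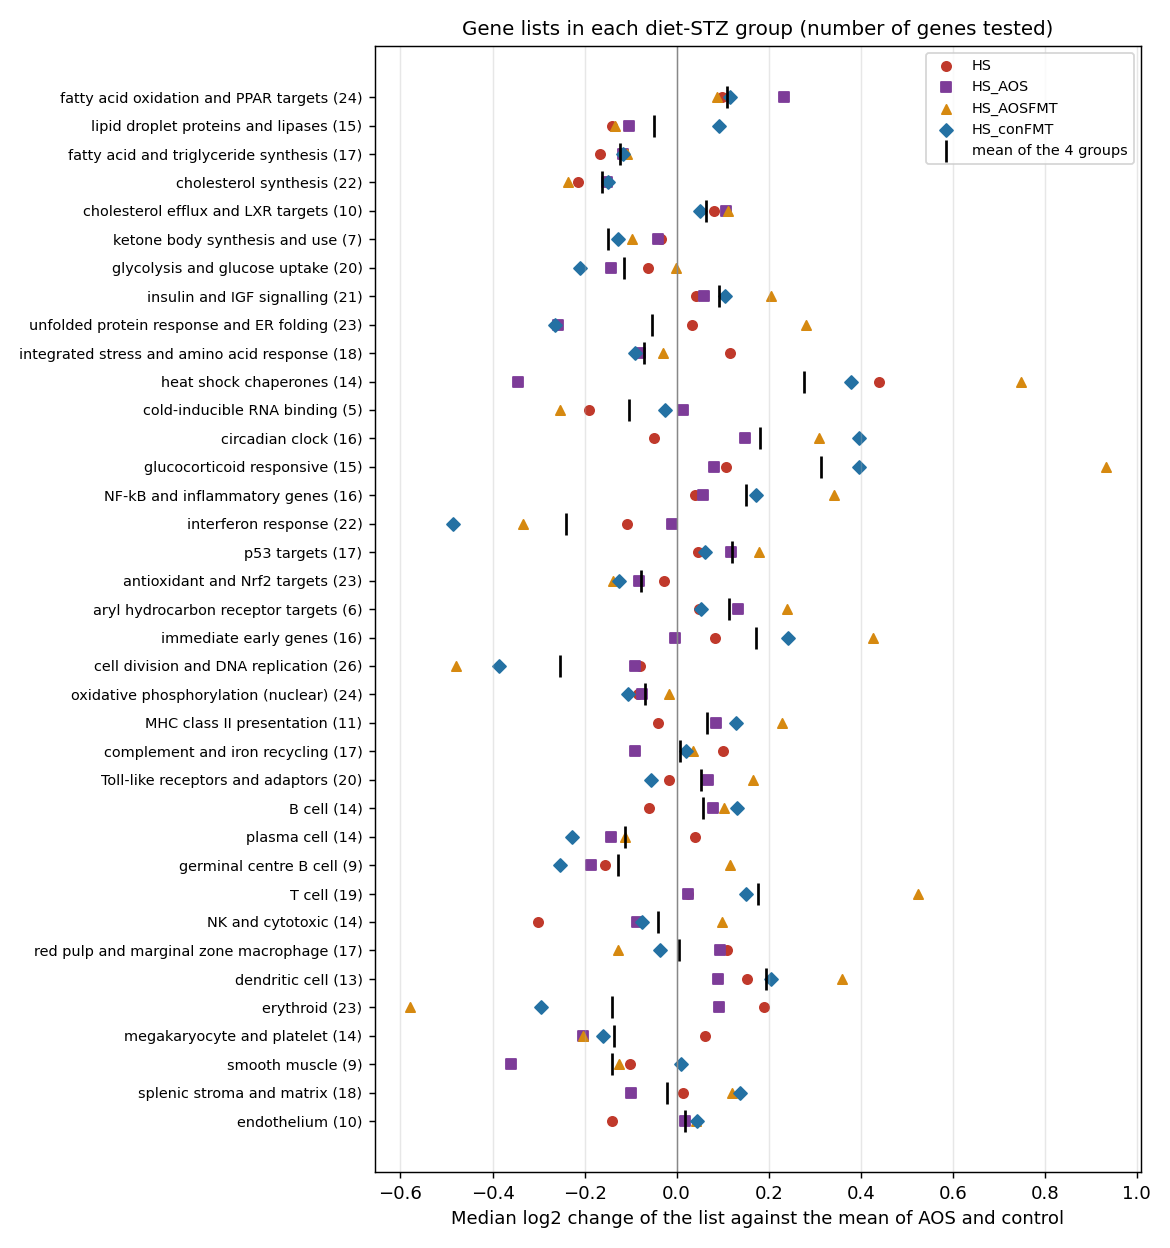
Median log2 change (x axis) of each gene list with at least 5 tested genes in each of the 4 diet and STZ groups (coloured symbols) and of the changes averaged over the 4 groups (black bars), against the mean of AOS and control; the lists of acinar, adipocyte, sperm, neutrophil and liver genes are left out. Cholesterol synthesis lies below 0 in all 4 groups, while glucocorticoid, heat shock and T cell lists are spread, with HS_AOSFMT farthest to the right.

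All 14 B cell and 19 T cell markers passed the filter, as did 17 macrophage and 23 of 24 erythroid ones, so the markers of spleen cells were present in a tissue labelled spleen. Transcripts of other tissues varied between libraries. The share of the summed FPKM due to pancreatic acinar genes was 0.00375% to 3.62% in exposed libraries (median 0.218%) and 0.00476% to 0.330% in unexposed ones (median 0.0759%), with 0 of 25 tested members called. The highest were HS 1 at 3.26% and HS_AOS 1 at 3.62%. HS 2 (0.364%), HS 3 (0.522%), HS_AOS 2 (0.410%) and HS_conFMT 3 (0.623%), which were not set aside, were also above the unexposed maximum. The median log2 change of the acinar list was 4.05 in HS, 3.15 in HS_AOS, 0.55 in HS_conFMT and -2.68 in HS_AOSFMT. The share of adipocyte genes was 0.00477% to 0.0675% exposed and 0.00648% to 0.0617% unexposed (0 of 10 called, median log2 change -0.66). The adipocyte medians were -1.43 in HS, -1.16 in HS_AOS, -0.13 in HS_AOSFMT and 0.010 in HS_conFMT. Fasn, Thrsp, Cidec and Plin2 are also expressed in fat, and the part of fat cells in their differences was not tested. With the acinar level as a covariate 150 genes were called, 68 of the 69 among them. Neutrophil genes made up 2.03% in control 1 and 0.619% in control 2, against at most 0.349% exposed. Their list had 0 of 18 called (median -0.56, -1.48 against control alone and 0.38 against AOS alone).

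Kap and the sperm genes had high values in control that AOS did not share. Kap, a kidney gene under androgen control, was at 13.3, 20.1 and 21.0 FPKM in control, was listed at 0 in all 3 AOS libraries and lay between 0 and 1.67 exposed, so its call (log2 change -1.75, adjusted p = 0.000235) does not separate exposed from unexposed spleens. Sperm genes were highest in control 2 (0.0375% of the summed FPKM). The sperm genes Tnp1 (5.44, 39.5 and 3.47 in control) and Prm2 (6.93, 55.0 and 3.00) were at most 0.26 and 0.73 FPKM in AOS and at most 0.28 and 0.31 exposed, and were called (adjusted p = 0.0397 and 0.0444). A different pattern was seen for Acta2, smooth muscle actin, which was at 44.5 to 72.5 unexposed and 28.0 to 46.4 exposed (log2 change -0.42, adjusted p = 0.0361), the only call among 9 tested smooth muscle genes (median -0.14).

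Within the unexposed side, AOS against control gave 1 call by limma (Kap; 0.00771% of 12969 genes, 1471 at an unadjusted p below 0.05), and the interaction, the diet and STZ difference with AOS minus that without it, also gave 1 (Kap; 0.00771%, 774 unadjusted). Against control alone the pooled comparison called 28 genes, 24 of them among the 69, and against AOS alone 19, 15 of them among the 69. Plin2, Pdk4, Acot1, Klf10 and Oxct1 were called against each.

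Each library held 12221 to 12898 genes at 1 FPKM or more and summed to between 666441 and 831448 FPKM. From the steps between low values of short genes with 1 transcript, 1 fragment of a transcript of 1 kilobase was worth 0.0803 to 0.0872 FPKM, so values under 1 FPKM, such as those of Slc6a12 in unexposed spleens, rested on few fragments. Across genes, 2 libraries of a group correlated at a Spearman rho of 0.950 to 0.989, and libraries of different groups at 0.936 to 0.989.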

How the data were processed

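Spleen RNA sequencing of 18 libraries was used as deposited by the authors, as FPKM per gene, 1 column per library. The unit is inferred from the values: the header does not name it. Column sums had a coefficient of variation of 6.14%, and sums weighted by transcript length one of 1.11%, with 18763 of 19326 symbols (97.1%) matched to GENCODE M21. Per the submitters' processing notes, Bowtie 0.12.2 and mm10 were used; the counter, the annotation and any filter: not given in the sources used here.

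Values were taken as log2(FPKM + 1) without rescaling. limma 3.58.1 (R 4.3.3) was fitted to 6 groups with a mean trend and robust moderation of the variances (degrees of freedom: 12 residual, 3.38 prior); tests were two-sided and Benjamini-Hochberg adjusted over 12969 genes at 0.05. The contrast is the mean of the 4 exposed coefficients minus the mean of the 2 unexposed ones. The code was tested on simulated data. Alternatives covered the pseudocount, the filter, scaling, weighting, left-out libraries and groups, and 2 covariates. Members and gene lists (44 lists, 683 genes, 636 tested) were chosen with earlier results of these data known.

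Named are up to 15 called genes per direction without overlap, largest change first, filled up by smallest p where fewer than 5 qualified, leaving out predicted genes and antigen receptor segments; up to 4 members per list by smallest p; and up to 6 genes each of the group-difference tests. Angptl4, Arrdc4, Klf11, Cyp4b1, Zfp36l2, Arg2, Ipo5 and the uncalled carboxylase genes and Ivd were chosen after their values were seen. Gene positions are GENCODE M21 (GRCm38, the build of mm10), and promoters are RefSeq GRCm38.p6. Replicate numbers are shared between groups. Deviations of same-numbered libraries correlated at -0.37 to 0.49 over 45 pairs (15 above 0.1). Numbers were not treated as pairs in the main fit, and a fit with them as a block is given among the alternatives. Some genes that the rule would name are not reported here.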

Additional observations from a re-analysis of the deposited data

Results flagged for a closer look

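The 6 genes named here were called higher in the pooled comparison and also called for a difference among the 4 diet and STZ groups by limma's moderated F test. The adjusted p of that difference was 1.85e-05 for Stat4, 2e-05 for Rundc3b, 2.94e-05 for Cables1, 2.94e-05 for Pde3b, 8.18e-05 for Fkbp5 and 0.000178 for B3gnt7. In all 6 the HS_AOSFMT libraries were the highest of the 18. Cables1, a regulator of cyclin-dependent kinases, was at 3.94, 4.34 and 4.39 FPKM there, at 1.15 to 2.05 in the other exposed libraries and at 1.26 to 1.51 unexposed, and its log2 change was 0.073 without that group.

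Kap was called for the interaction: its diet and STZ difference with AOS minus that without it was 3.63 on the log2 scale (adjusted p = 0.00195 by limma). It was at 13.3 to 21.0 FPKM in control, listed at 0 in AOS and at most 1.67 in the exposed libraries.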

How the results depend on the processing

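The pooled comparison called 69 genes. The count was 21 after rescaling to equal totals, 148 with median log ratio scaling, 143 with quantile normalization (62.9% of them higher, against 73.9%), 6 with groups ignored, 1 with group as a random block, 11 without HS_AOSFMT, 28 against control alone, 19 against AOS alone (52.6% higher) and 7 in the subset of control, AOS, HS and HS_AOS. Chosen after seeing the data were 4 libraries set aside (18 calls, 55.6% higher), the acinar level as a covariate (150) and the haemoglobin share as a covariate (188, 56.9% higher). The lower pseudocounts, both other filters, the other scaling, the fit without trend and leaving out HS, HS_AOS or HS_conFMT moved it by at most 1.5 times. The cause of these moves was not tested.

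Leaving out single libraries gave 21 to 499 calls: 38, 40 and 499 without control 1, 2 and 3, 22, 21 and 26 without AOS 1, 2 and 3, 27 and 39 without HS 2 and 3, 29 and 35 without HS_AOS 1 and 2, 36, 34 and 25 without HS_AOSFMT 1, 2 and 3, and 32 without HS_conFMT 3; the other 4 stayed within 1.5 times. Calls for a difference among exposed groups (712) ran from 147 (without HS_AOSFMT 3) to 1109 (without control 3). AOS against control (1 call) ran from 1 to 49 (without control 3), with 2 at pseudocount 0.1 and 7 with no filter. The interaction (1 call) ran from 1 to 8 (without control 2), with 0 at pseudocount 0.1 by limma (774 genes at an unadjusted p below 0.05).

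With the replicate number as a block the pooled count was 116, 67 of them among the 69. Among the 18 libraries, 8 correlated best with their own number. Some genes followed the number in some groups. Gzma was highest in replicate 3 of control, AOS, HS and HS_AOS (52.8, 61.4, 48.6 and 46.6 FPKM). In HS_AOSFMT and HS_conFMT it lay between 19.9 and 27.7. Irf7 was highest in replicate 3 of AOS, HS and HS_AOS but lowest there in control. Whether the numbers mark a batch was not tested. Over all alternatives the log2 change of a called gene changed sign once: Kap, at 0.36 against AOS alone. Among genes not called, 77 values of 40 genes changed sign without a call. Of the other values for genes under the naming rule, 7711 kept direction and side of the threshold, 1097 lost the call and 127 gained one. Values under 1 FPKM rest on few fragments, which limits the precision for genes such as Slc6a12.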

Other observations

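Ipo5, an importin like Kpnb1, was at 38.5 to 44.0 FPKM unexposed and 31.8 to 40.1 exposed (log2 change -0.21, adjusted p = 0.0439 by limma). Dars, the cytosolic aspartyl-tRNA synthetase, was at 49.0 to 58.7 and 37.6 to 51.6, with 11 of 12 exposed libraries below the unexposed minimum (log2 change -0.27, adjusted p = 0.0165), and its call held without HS_AOSFMT (adjusted p = 0.0298). Mnat1, a subunit of the kinase complex that activates cyclin-dependent kinases, was at 9.72 to 12.2 and 7.54 to 10.4 (log2 change -0.30, adjusted p = 0.0346). Setd3, an actin histidine methyltransferase, was at 33.1 to 39.1 and 29.2 to 34.0 (log2 change -0.21, adjusted p = 0.0397). Smim24, a small membrane protein, was at 5.55 to 9.13 and 2.95 to 5.90 (log2 change -0.52, adjusted p = 0.0413).

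Insulin genes were seen at trace levels: the islet list took at most 0.00051% of the summed FPKM in any exposed library, and its highest value was 2.36 FPKM for Ins2. Neither it nor the other 6 islet genes passed the filter.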
